A study of Mus musculus with 16 samples.

Results

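The genes described here are 41 genes of the skeletal muscle fiber, chosen by name, and each was read from the probeset whose platform annotation gave that single gene symbol and whose mean over all arrays was highest. A probeset is the set of short probes on the array that reads 1 transcript. Of the 41 genes 40 were measured, among 18193 genes read from the arrays, and Xirp2 is not analysed here. A muscle fiber shortens when myosin thick filaments pull on actin thin filaments inside the sarcomere, the repeating unit bounded by Z-discs and spanned by the giant protein titin. Contraction starts when calcium leaves the sarcoplasmic reticulum at the triad and binds troponin on the thin filament, and it is fuelled by creatine phosphate and glycogen. Fast and slow fibers use different isoforms of myosin and troponin. In the mouse a thin sheet of fast skeletal muscle, the panniculus carnosus, lies under the dermis and the fat layer, so full thickness skin holds muscle fibers.

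RNA from 4 samples of normal skin and from 12 skin carcinomas of mice, all on the FVB background, was hybridised to Affymetrix MOE430 2.0 arrays, 1 array per sample. The 7 p53 tumors arose in k14Cre;p53loxP/loxP mice and the 5 pRbp53 tumors in k14Cre;p53loxP/loxP;pRbloxP/loxP mice, and the skin of the controls came from wild type mice. In both tumor lines the keratin 14 promoter drives the Cre recombinase in the basal cells of stratified epithelia, so that the floxed genes are lost there. The state of these genes in muscle was not measured here. By histology p53 tumors 2, 4 and 5 were poorly differentiated, 3 was undifferentiated, 6 was a spindle cell carcinoma and 1 and 7 were mixed, while pRbp53 tumors 1, 2, 3 and 5 were spindle cell carcinomas and 4 was mixed. Ages were not given in the sources used here, nor was the depth to which skin or tumor was taken. Whether each sample is a different animal is not stated either, and the p-values therefore reflect only how far these particular samples spread, which may be technical.

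Fiber genes share sequence features near their starts, and 4 stretches of the 250 bases upstream of a RefSeq start are shown to let the fast isoforms be read beside a slow one. Capitals mark the E-box CAGCTG, a site of the MyoD family of muscle regulators, the MEF2 site and the CArG box, which binds serum response factor. Myh4 encodes a fast myosin heavy chain, Atp2a1 the calcium pump of fast fibers, Apobec2 a cytidine deaminase family member of muscle and Tnnt1 the slow troponin T, and these 4 were picked after their letters were seen. The windows are on build GRCm38.p6, at chr11:67237562-67237811 on the plus strand for Myh4, chr7:126463074-126463323 on the minus strand for Atp2a1, chr17:48432729-48432978 on the minus strand for Apobec2 and chr7:4515976-4516225 on the minus strand for Tnnt1.
Myh4: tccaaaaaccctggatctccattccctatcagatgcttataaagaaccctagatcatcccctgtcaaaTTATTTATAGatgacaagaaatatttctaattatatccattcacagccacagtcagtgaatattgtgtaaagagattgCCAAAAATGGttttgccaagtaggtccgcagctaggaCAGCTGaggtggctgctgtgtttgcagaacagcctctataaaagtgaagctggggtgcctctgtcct
Atp2a1: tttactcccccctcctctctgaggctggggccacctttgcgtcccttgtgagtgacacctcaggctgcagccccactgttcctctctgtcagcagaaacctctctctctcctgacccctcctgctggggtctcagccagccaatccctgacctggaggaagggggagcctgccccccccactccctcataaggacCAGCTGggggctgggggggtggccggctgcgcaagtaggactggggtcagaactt
Apobec2: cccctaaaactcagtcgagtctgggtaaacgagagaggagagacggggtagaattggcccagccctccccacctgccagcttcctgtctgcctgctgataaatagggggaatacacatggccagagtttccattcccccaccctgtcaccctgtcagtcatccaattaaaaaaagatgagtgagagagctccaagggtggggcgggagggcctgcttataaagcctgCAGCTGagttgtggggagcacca
Tnnt1: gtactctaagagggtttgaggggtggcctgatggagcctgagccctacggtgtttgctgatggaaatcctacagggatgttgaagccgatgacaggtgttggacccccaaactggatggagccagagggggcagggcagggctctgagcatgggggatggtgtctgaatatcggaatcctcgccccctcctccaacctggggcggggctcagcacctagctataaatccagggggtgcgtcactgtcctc

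The first base of CAGCTG lay 67 bases upstream of the start in Myh4, 55 in Atp2a1 and 23 in Apobec2, and the Tnnt1 window held none. Myh4 also had a MEF2 site that began 182 bases and a CArG box that began 104 bases upstream. RefSeq windows were found for 30 of the 41 genes (35 windows, since some genes have several starts), and for Actn3, Cacng1, Dhrs7c, Jph1, Myot, Myoz1, Neb, Tcap, Tnni2, Tnnt3 and Trdn there was no entry. CAGCTG was found in 16 of the 35 windows (45.7%), against 13% of all 32851 windows of this length in the table. It stood in 14 of the 29 windows of the fast and general fiber genes and in 2 of the 6 windows of the slow isoforms, the latter both of 1 gene. MEF2 sites stood in 6 windows (17.1%, against 2.92% of all), CArG boxes in 4 (11.4%, against 1.47%) and CATTCC, the core of the site of TEAD factors, in 11 (31.4%, against 12.6%). The wider E-box CANNTG, which contains CAGCTG, stood in 82.9% of the windows of these genes and in 66.2% of all. Both strands were searched, and a match is a description of the letters and not a bound site.

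All values are log2 signals, on which a step of 1 is a doubling, and the median signal of an array lay between 5.63 and 5.77. As a gauge of RNA integrity, the actin probesets at the 3' and 5' ends of the transcript were set against each other, and the 3' signal was the higher by 1.33 (control skin 3), by 1.67 (p53 tumor 7) and by 0.21 to 0.68 (all other arrays). Control skin 2 and 4 resembled each other more than any other control pair did, with an SD of their log2 differences over all probesets of 0.218 against 0.414 to 0.571. Rb1 ran from 8.98 to 9.54 in control skin, from 7.57 to 8.50 in p53 tumors and from 7.10 to 7.94 in pRbp53 tumors, and since it is not known whether this probeset lies inside the deleted exons, it does not check the labels.

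The first question was how much of the muscle program of normal skin was left in the carcinomas. Of the 40 measured genes 36 fell in the tumors, none rose (6.36% of all probesets did), and the 4 that did not pass were the slow fiber isoforms Myh7, Tnnc1, Tnni1 and Tnnt1. The median difference of the 40 genes was −6.36 on the log2 scale, beside 0.07 over all probesets. An adjusted p of 0.05 in limma was passed downwards by 6.85% of the 45037 probesets. For 35 of the 36 genes every tumor lay below every control, a separation seen for 3.79% of all probesets. The exception was Cacna1s, for which 1 tumor reached the level of the controls. The tumor mean was below 5% of the control mean (both as means of log2 signal) for 33 of the 36 genes and below 1% for 18. Tumor readings below the array median may be background of the array, and no detection calls were used here. These percentages are therefore upper limits only for the mean of log2 signal. Such a mean gives little weight to single high tumors, which lay above these percentages. In bulk tissue, fewer muscle fibers and less RNA per fiber cannot be told apart.

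**Figure D1:**
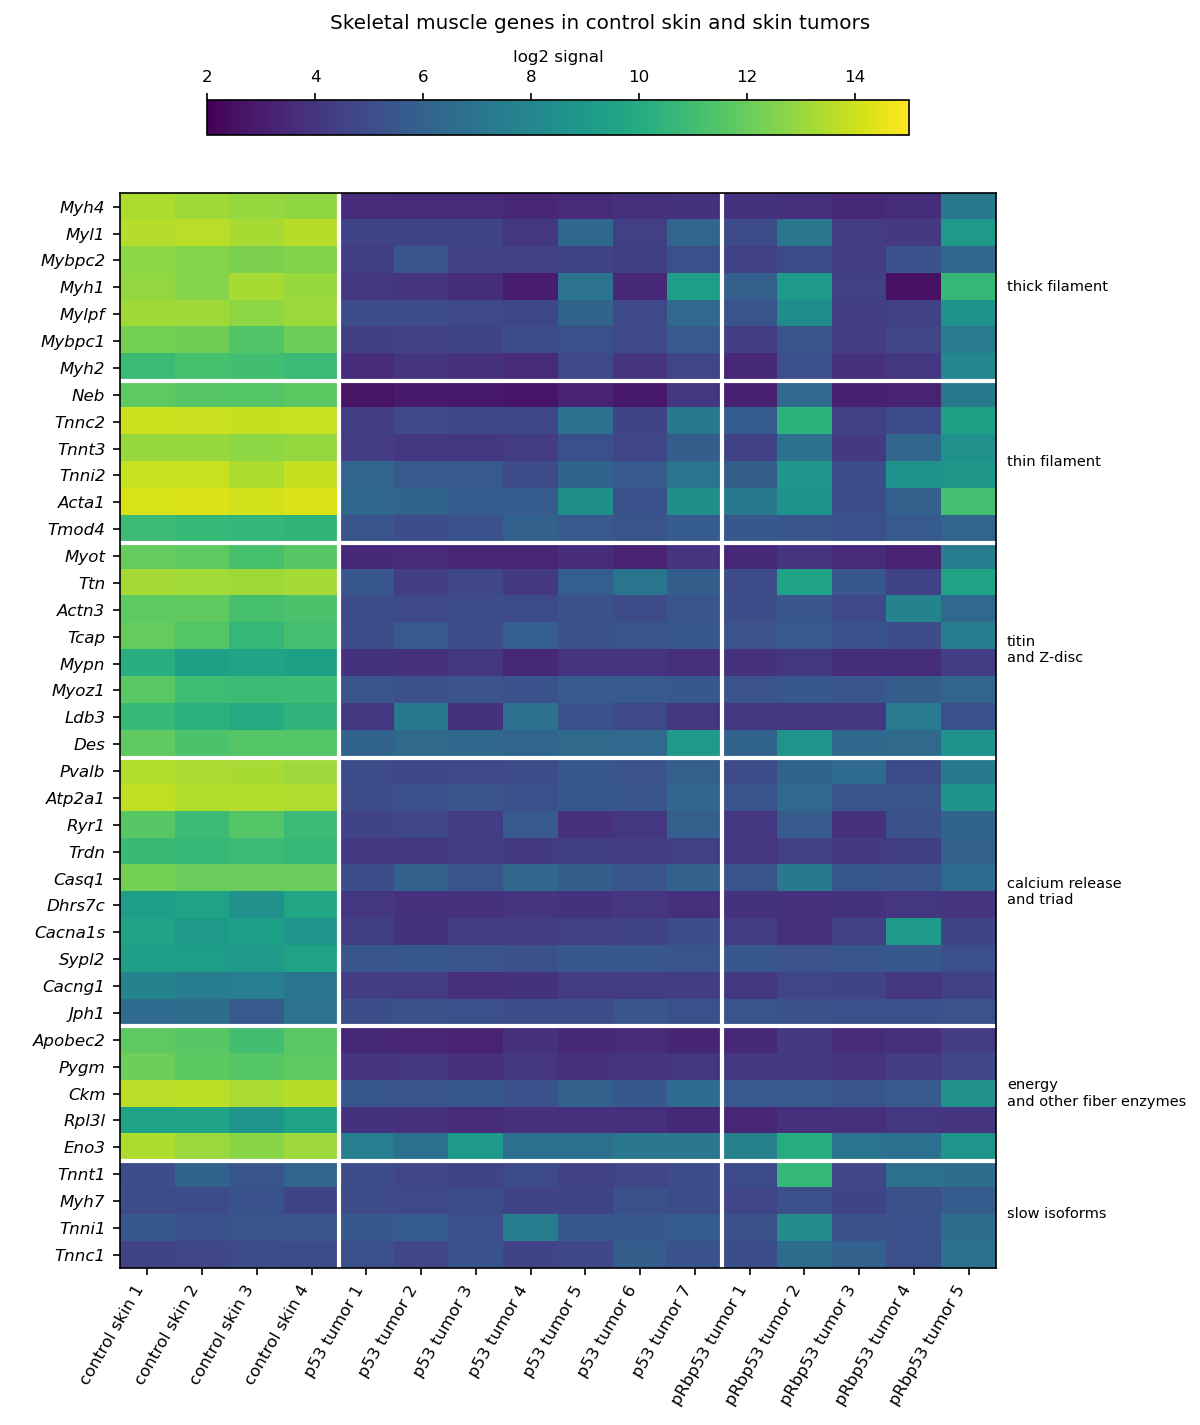
Log2 signal of the 40 measured genes (rows, by role) in each of the 16 arrays (columns), with color from 2 to 15. The 4 control arrays are bright for most of the 36 genes above the lowest block (Jph1 is dim), the 12 tumors are dark for most of them with pRbp53 tumors 2 and 5 as the brightest columns, and the slow isoforms at the bottom are dark in control skin as well.

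The thick filament is built from myosin heavy chains, light chains and myosin-binding protein C. Myh4, the heavy chain of the fastest fibers, read 13.40, 13.12, 12.94 and 12.86 in the 4 control samples, ran from 3.39 to 3.88 with a median of 3.58 in p53 tumors, and read 3.92, 3.81, 3.43, 3.69 and 7.20 in pRbp53 tumors 1 to 5. One tumor, pRbp53 tumor 5, stood far above the other 11 and still well below all controls. Over all tumors the mean of Myh4 fell by 9.13 ± 0.51 in log2 units (SE, with an adjusted p = 2.02e-09 in limma). As means of log2 signal, at most 0.179% of the control signal was left on average, and pRbp53 tumor 5 lay above this average. Myl1, an alkali light chain of fast fibers, read 13.55, 13.64, 13.29 and 13.60 in control skin, ran from 4.13 to 6.38 around a median of 4.62 in p53 tumors and read 4.97, 7.15, 4.31, 4.14 and 9.04 in pRbp53 tumors. Here pRbp53 tumors 2 and 5 both read higher than the rest, and the groups did not overlap (a fall of 8.13 ± 0.73, SE, adjusted p = 9.24e-07). Myh2, the heavy chain of fast oxidative fibers, had the smallest difference of this group: 10.86, 11.23, 11.09 and 10.84 in control skin, 3.60 to 4.85 with a median of 3.96 in p53 tumors, and 3.50, 5.18, 3.85, 4.09 and 8.06 in pRbp53 tumors. It fell by 6.56 ± 0.61 (SE, adjusted p = 1.30e-06), with only pRbp53 tumor 5 above 5.2. Mylpf, the regulatory light chain of fast fibers, and the binding proteins Mybpc1 and Mybpc2 fell by 7.32, by 6.97 and by 7.75.

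Myh1, the heavy chain of intermediate fast fibers, was the least even gene among the tumors, with an SD of 2.74 over the 12. It lay between 12.66 and 13.29 in control skin, and the tumors ran from 2.60 in pRbp53 tumor 4 to 10.66 in pRbp53 tumor 5, with 9.25 in p53 tumor 7, 8.99 in pRbp53 tumor 2 and 6.98 in p53 tumor 5. Its fall of 7.37 had the largest SE of the 36 genes, 1.32 (adjusted p = 1.32e-03). The genes of Myh2, Myh1 and Myh4 lie side by side on chromosome 11, and the probeset of Myh1 is of a class that reads several transcripts of 1 gene. Another Myh1 probeset fell by 7.96 ± 1.30 (SE), and a further one, with a control mean of only 4.28, fell by 0.45 ± 0.09. Whether related heavy chain transcripts were read as well was not tested and is a limit of these readings.

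The thin filament carries actin, nebulin and the troponins. Neb, which encodes nebulin, the ruler of thin filament length, read 11.76, 11.60, 11.54 and 11.74 in control skin, 2.69 to 4.13 with a median of 2.90 in p53 tumors and 3.14, 6.42, 3.20, 3.26 and 7.23 in pRbp53 tumors. Its values divided the tumors into a low set of 10 and the raised pRbp53 tumors 2 and 5, and it fell by 7.92 ± 0.72 (SE, adjusted p = 1.11e-06). Tnnc2, the calcium-binding troponin of fast fibers, read 13.99, 13.98, 13.85 and 13.90 in control skin, 4.38 to 7.20 around a median of 4.83 in p53 tumors, and 5.79, 10.34, 4.58, 4.92 and 9.41 in pRbp53 tumors. It fell by 7.87 ± 0.97 (SE, adjusted p = 3.52e-05), and its highest tumor was pRbp53 tumor 2. Tmod4, the tropomodulin that caps thin filaments in fast fibers, read 10.92, 10.72, 10.63 and 10.50 in control skin, 5.13 to 6.05 with a median of 5.44 in p53 tumors, and 5.59, 5.46, 5.17, 5.67 and 6.24 in pRbp53 tumors. No tumor stood apart for Tmod4, and its fall of 5.13 ± 0.18 (SE, adjusted p = 3.88e-12) was the smallest of the group. The fast troponins Tnnt3 and Tnni2 fell by 7.69 and by 7.21 and the skeletal actin Acta1 fell by 7.19, the last from 14.22 ± 0.09 (SD, n = 4) to 7.03 ± 1.81 (SD, n = 12).

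Titin and the proteins of the Z-disc hold the filaments in register. Myot, which encodes myotilin, an actin-bundling protein of the Z-disc, read 11.91, 11.77, 11.22 and 11.61 in control skin, 3.24 to 3.95 with a median of 3.50 in p53 tumors and 3.48, 4.0, 3.59, 3.22 and 7.45 in pRbp53 tumors. As with Myh4, only pRbp53 tumor 5 was raised (a fall of 7.75 ± 0.56, SE, adjusted p = 6.13e-08). Ttn, which encodes titin, read 13.26, 13.19, 13.15 and 13.24 in control skin, the tightest control values of the 36 genes (SD 0.05). In the tumors Ttn was spread widely, from 4.16 to 7.04 around a median of 5.53 in p53 tumors and at 5.03, 9.54, 5.54, 4.62 and 9.60 in pRbp53 tumors, and it fell by 7.22 ± 0.89 (SE, adjusted p = 3.63e-05). Des, which encodes the intermediate filament desmin of all muscle types, read 11.85, 11.32, 11.59 and 11.50 in control skin, 6.13 to 9.04 with a median of 6.44 in p53 tumors and 6.15, 8.71, 6.34, 6.51 and 8.63 in pRbp53 tumors. Its fall of 4.60 ± 0.54 (SE, adjusted p = 2.13e-05) was the smallest of the group, and its highest tumor was p53 tumor 7. Actn3, the actinin of fast Z-discs, Tcap, which anchors titin, Mypn, Myoz1 and Ldb3, further Z-disc proteins, fell by 6.08, by 5.75, by 5.74, by 5.56 and by 5.27.

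Genes of calcium release and uptake fell in all 10 cases, over the widest range of any group. Pvalb, which encodes parvalbumin, the calcium buffer of fast fibers, read 13.52, 13.36, 13.28 and 13.08 in control skin, 4.83 to 5.96 with a median of 4.97 in p53 tumors and 5.0, 6.16, 6.56, 4.91 and 7.23 in pRbp53 tumors (a fall of 7.78 ± 0.38, SE, adjusted p = 4.66e-10). Atp2a1, whose promoter is shown above, read 13.76, 13.52, 13.49 and 13.44 in control skin, 5.02 to 6.28 around a median of 5.41 in p53 tumors and 5.40, 6.47, 5.50, 5.36 and 8.63 in pRbp53 tumors. For both genes every pRbp53 and p53 tumor stayed more than 4 log2 units below the lowest control, and Atp2a1 fell by 7.76 ± 0.48 (SE, adjusted p = 8.90e-09). Jph1, a junctophilin that ties the reticulum to the cell membrane, read 6.56, 6.62, 5.66 and 6.97 in control skin, 5.0 to 5.43 with a median of 5.16 in p53 tumors, and 5.37, 5.22, 5.17, 5.17 and 5.31 in pRbp53 tumors. On this probeset it had the lowest control values of the 36 genes and fell by 1.25 ± 0.16 (SE, adjusted p = 5.71e-05). Control skin 3 lay closest to the tumors, and with unequal variances in the test Jph1 missed the threshold (adjusted p = 0.0797). The other Jph1 probeset had a control mean of 8.21 and a tumor mean of 4.49 and fell by 3.72 ± 0.37 (SE, adjusted p = 3.10e-06), so the small fall belongs to the probeset that the selection rule picked. The release channel Ryr1, triadin (Trdn) and calsequestrin (Casq1) fell by 6.37, by 6.36 and by 6.23. Dhrs7c, a reticulum enzyme, the channel subunits Cacna1s and Cacng1, and Sypl2, a triad protein, fell by 5.32, by 4.40, by 3.21 and by 3.84.

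Enzymes of energy supply and 2 other fiber genes completed the set. Apobec2 read 11.75, 11.61, 11.05 and 11.67 in control skin, 3.25 to 3.86 with a median of 3.48 in p53 tumors, and 3.47, 4.16, 3.56, 3.80 and 4.31 in pRbp53 tumors, a fall of 7.87 ± 0.18 (SE, adjusted p = 4.21e-14). Pygm, the muscle glycogen phosphorylase, read 12.13, 11.70, 11.58 and 11.77 in control skin, 3.79 to 4.13 around 4.01 in p53 tumors and 4.17, 4.12, 4.01, 4.27 and 4.78 in pRbp53 tumors. It fell by 7.69 ± 0.14 (SE, adjusted p = 4.02e-15), and like Apobec2 it was uniformly low, also in pRbp53 tumors 2 and 5. Eno3, the muscle enolase of glycolysis, read 13.38, 13.03, 12.71 and 13.07 in control skin, 6.77 to 9.04 with a median of 7.16 in p53 tumors, and 7.64, 10.04, 6.99, 6.74 and 8.75 in pRbp53 tumors. The highest p53 value was that of tumor 3, and the gene fell by 5.43 ± 0.53 (SE, adjusted p = 2.23e-06). Ckm, the muscle creatine kinase, fell by 7.65 ± 0.44 and Rpl3l, a muscle form of a ribosomal protein, fell by 5.58 ± 0.14.

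Slow fiber isoforms were low in control skin too. Myh7, the slow myosin heavy chain, read 5.0, 5.02, 5.26 and 4.65 in control skin, 4.60 to 5.22 with a median of 4.98 in p53 tumors and 4.72, 5.19, 4.63, 5.24 and 5.80 in pRbp53 tumors. The groups overlapped and the difference was 0.01 ± 0.19 (SE, adjusted p = 0.979). Tnnc1, the troponin C of slow and heart muscle, read 4.66, 4.79, 5.0 and 4.90 in control skin, 4.63 to 5.81 around 5.18 in p53 tumors and 5.10, 6.62, 6.04, 5.19 and 6.85 in pRbp53 tumors. Over all tumors its difference was 0.63 ± 0.35 (SE, adjusted p = 0.274), and it passed with array weights (adjusted p = 0.0376). Tnni1, the slow troponin I, read 5.60, 5.28, 5.50 and 5.41 in control skin, 5.15 to 7.50 with a median of 5.58 in p53 tumors and 5.25, 8.27, 5.21, 5.27 and 6.68 in pRbp53 tumors, a difference of 0.51 ± 0.49 (SE, adjusted p = 0.547). Tnnt1, the slow troponin T whose promoter is shown above, read 5.09, 6.14, 5.48 and 6.25 in control skin, 4.55 to 5.08 around 4.77 in p53 tumors and 4.91, 10.67, 4.78, 6.79 and 6.71 in pRbp53 tumors. The readings of pRbp53 tumors 2, 4 and 5 were above every control, that of tumor 2 by far the most, and the pooled difference of −0.11 ± 0.86 (SE, adjusted p = 0.951) had a wide error.

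Both genotypes were set against the same 4 control samples. In p53 tumors 36 genes fell and none rose (6.38% of all probesets were lower and 5.57% higher), with a median difference of −6.49 over the 40 genes. In pRbp53 tumors 36 genes fell (6.86% of all probesets were lower) and the median was −6.11. Tnnc1 was higher in pRbp53 tumors than in control skin by 1.12 ± 0.34 (SE, adjusted p = 0.0406), where 5.54% of all probesets were higher. That call was lost whichever control array, or pRbp53 tumor 2, 3 or 5, was left out, with adjusted p from 0.0697 to 0.107. Because both comparisons use the same control arrays and the same estimate of the spread, they are given side by side and not as independent results.

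**Figure D2:**
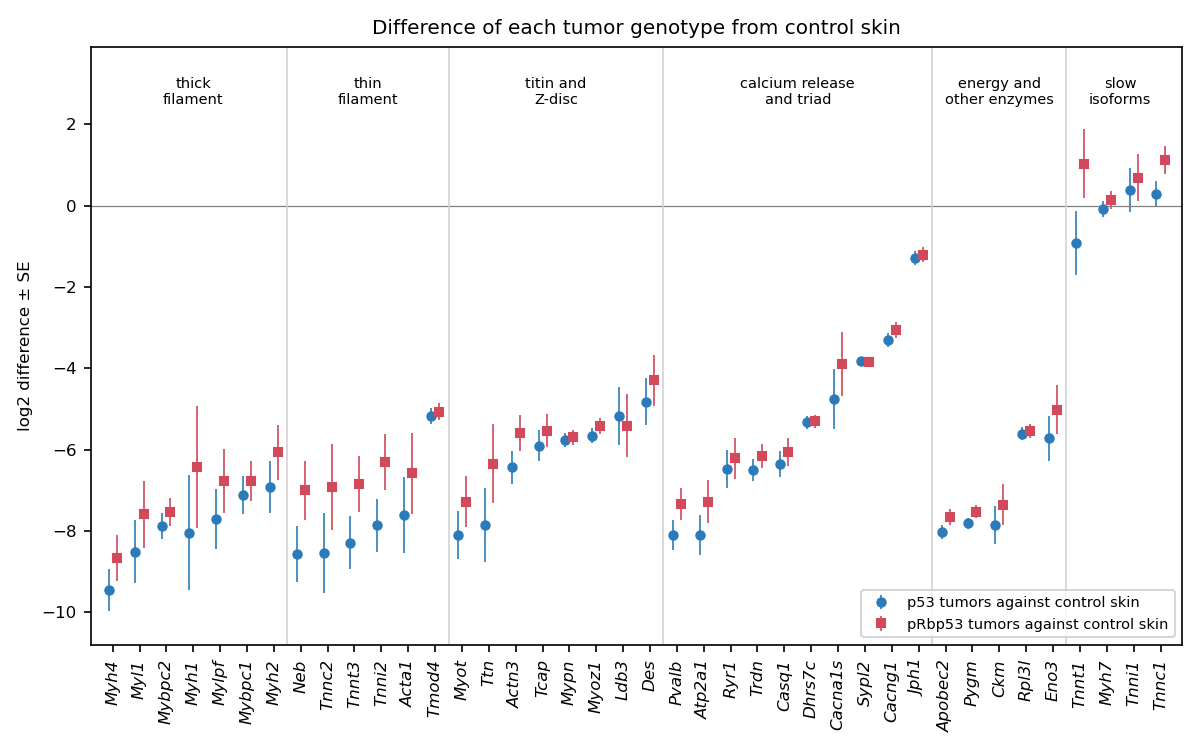
Log2 difference from control skin (points, with SE) of each of the 40 genes in p53 tumors (circles, n = 7) and in pRbp53 tumors (squares, n = 5), ordered by role. All 36 genes of the first 5 blocks lie below 0 in both genotypes, down to −9.46 for Myh4 in p53 tumors, and the slow isoforms on the right lie between −0.92 and 1.12.

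The direct question of whether muscle signal differed between genotypes was asked in the tumors alone. Of the 5 pRbp53 tumors 4 were spindle cell carcinomas, against 1 of the 7 p53 tumors, and all 3 poorly differentiated tumors were p53 tumors. Genotype and histology therefore cannot be fully told apart here. None of the 40 genes passed the adjusted p of 0.1 in limma, which 0.198% of all probesets did, and 5 of the 40 were below an unadjusted p of 0.05; neither the methods' t-test nor a test with unequal variances called any. The 4 with the smallest p were Tnnc1, higher in pRbp53 tumors by 0.85 ± 0.33 (SE, adjusted p = 0.456), Tnnt1 by 1.96 ± 0.82 (0.493), Tnni2 by 1.56 ± 0.68 (0.517) and Apobec2 by 0.37 ± 0.16 (0.519). The median difference of the 40 genes was 0.51 towards pRbp53 tumors. It was 0.15 without pRbp53 tumor 5 and −0.04 without pRbp53 tumors 2 and 5 together, an alternative chosen after their values were seen.

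Grade and histology were compared next, with the same overlap of grade and genotype. Between the 6 undifferentiated or spindle and the 3 poorly differentiated tumors 1 of the 40 genes passed, Ldb3 of the Z-disc, which was lower by 2.09 ± 0.47 (SE, limma adjusted p = 0.0303), where 3.99% of all probesets were lower and 7.39% passed in either direction. Ldb3 read 7.21, 6.92 and 5.26 in the poorly differentiated p53 tumors 2, 4 and 5 and between 3.91 and 5.27 in the 6 others, so the groups overlapped, and the call was lost without any 1 of p53 tumors 2, 3 and 4 or pRbp53 tumors 1, 2 and 3 (adjusted p from 0.0557 to 0.118). The next 3 genes by p were Tnnc1, with a difference of 1.21 ± 0.38 (SE, adjusted p = 0.0967), Eno3 with 1.48 ± 0.64 (0.221) and Ttn with 2.11 ± 1.22 (0.367). With the median of its probesets Ldb3 differed by −0.85 (adjusted p = 0.141). With all 16 arrays in the fit Ldb3 did not pass (0.0521) and Tnnc1 did (0.0243). Between the 3 mixed and the 9 other tumors none of the 40 genes passed in limma, nor did any probeset (0% of all), and 1 was below an unadjusted p of 0.05. That was Cacna1s, with a difference of 1.88 ± 0.74 (SE, adjusted p = 0.607), followed by Actn3 (0.92 ± 0.49), Casq1 (−0.44 ± 0.38) and Tnni2 (0.97 ± 0.89).

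The remaining muscle signal was then followed array by array. For each of the 36 genes the control mean was subtracted, and the median over the genes was taken in every array. In the controls this median lay between −0.15 and 0.21. In the tumors it lay between −7.45 (p53 tumor 1) and −4.60 (pRbp53 tumor 5), which is at most 0.573% to at most 4.12% of the control signal. In 7 of the 12 tumors the mean of the 36 genes was 4.67 to 4.85, below the median of any array, so no order can be read among those tumors. The means of pRbp53 tumor 4 (5.17), p53 tumor 5 (5.20) and p53 tumor 7 (5.56) were also below the median of any array, so their places are uncertain too. Only pRbp53 tumors 2 (6.06) and 5 (7.03) had means above the array medians. Most tumors were close together: p53 tumors 1, 2, 3, 4 and 6 and pRbp53 tumors 1 and 3 lay between −7.45 and −7.08. Above them came pRbp53 tumor 4 at −6.65, p53 tumor 5 at −6.32, p53 tumor 7 at −6.30, pRbp53 tumor 2 at −5.56 and pRbp53 tumor 5 at −4.60. The mean log2 signal of all 40 genes was 10.80 to 11.14 in control skin, 4.71 to 5.53 in p53 tumors and 4.73 to 6.98 in pRbp53 tumors. Of the 36 genes, the highest of the 12 tumors was pRbp53 tumor 5 for 24, pRbp53 tumor 4 for 6, pRbp53 tumor 2 for 4 and p53 tumors 6 and 7 for 1 each. By histology the median was −7.14 to −6.32 in poorly differentiated tumors, −7.29 in the undifferentiated tumor, −7.26 to −4.60 in spindle cell carcinomas and −7.45 to −6.30 in mixed tumors, ranges that overlapped.

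**Figure D3:**
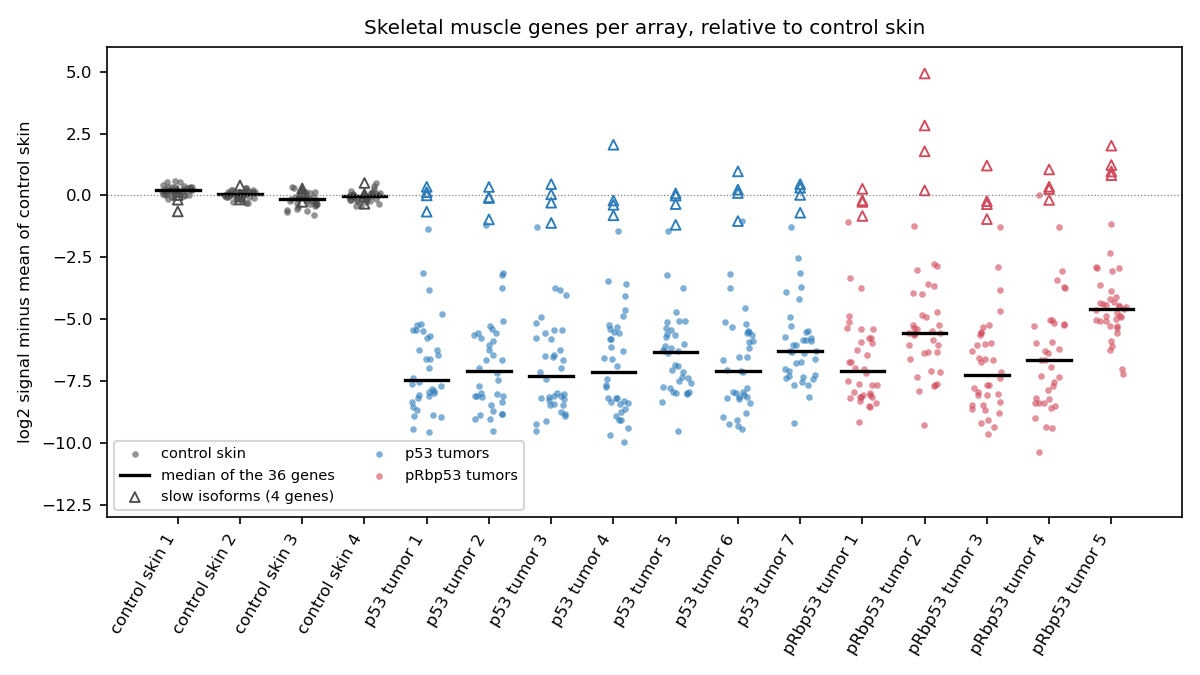
Log2 signal of each of the 36 genes minus its mean in control skin (dots) in every array, with the median as a black bar and the 4 slow isoforms as open triangles. The medians of the tumors lie between −7.45 and −4.60, and the triangles of Tnnt1, Tnni1 and Tnnc1 in pRbp53 tumor 2 stand well above 0.

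The 2 arrays with the most remaining signal differed in which genes they held, and the genes set side by side here were picked after their values were seen. In pRbp53 tumor 5 the mature fast fiber genes were raised together: Myh1 at 10.66, Acta1 at 11.15, Ckm at 8.60, Atp2a1 at 8.63, Tnnt3 at 8.55, Myh4 at 7.20 and Myot at 7.45. The median of the 36 genes in that array lay 4.60 below control skin, and 23 of the 36 stood more than 1 log2 unit above the median of the 12 tumors. In pRbp53 tumor 2, 15 genes did. There Tnnc2 was 10.34, Eno3 10.04, Ttn 9.54, Myh1 8.99, Tnni2 8.84 and Mylpf 8.30. However, Myh4 was 3.81, Myot 4.0 and Ckm 5.69 in pRbp53 tumor 2, at the level of the tumors other than pRbp53 tumor 5. Pygm was low in both arrays, at 4.12 in pRbp53 tumor 2 and 4.78 in pRbp53 tumor 5. The slow troponins Tnnt1, Tnni1 and Tnnc1 stood at 10.67, 8.27 and 6.62 in pRbp53 tumor 2 and at 6.71, 6.68 and 6.85 in pRbp53 tumor 5, in both arrays above all controls.

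Myogenic regulators were read in the same arrays. Myod1 and Myog, transcription factors that commit cells to muscle and start fiber differentiation, were 10.19 and 9.54 in pRbp53 tumor 2, against at most 5.33 and 4.86 in the 11 other tumors and at most 5.75 and 5.73 in control skin. In the same array Pax7, of satellite cells, the stem cells of muscle, was 7.40, Vgll2, a muscle cofactor of TEAD factors, was 10.15, Cdh15, the cadherin of myoblasts, was 8.40, and Chrna1 and Chrnb1, subunits of the acetylcholine receptor, were 11.19 and 9.47. Six4 (8.27) and Chrnd (7.31) were also more than 1 log2 unit above the tumor median there. Six4 was so in p53 tumor 6 (8.38) and pRbp53 tumor 1 (7.28) as well. The regulators Myf5, Myf6, Pax3 and Mef2c were not, nor were the neuromuscular junction genes Chrne, Musk, Dok7 and Colq. In pRbp53 tumor 5 Myod1 was 5.33, Myog 4.86 and Pax7 3.82, with Chrna1 at 9.30. The mean of the 10 measured regulators was 7.30 in pRbp53 tumor 2, 4.56 to 5.24 in the other tumors and 6.02 to 6.18 in control skin. With 1 array showing each pattern, there is no replicate check of either.

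**Figure D4:**
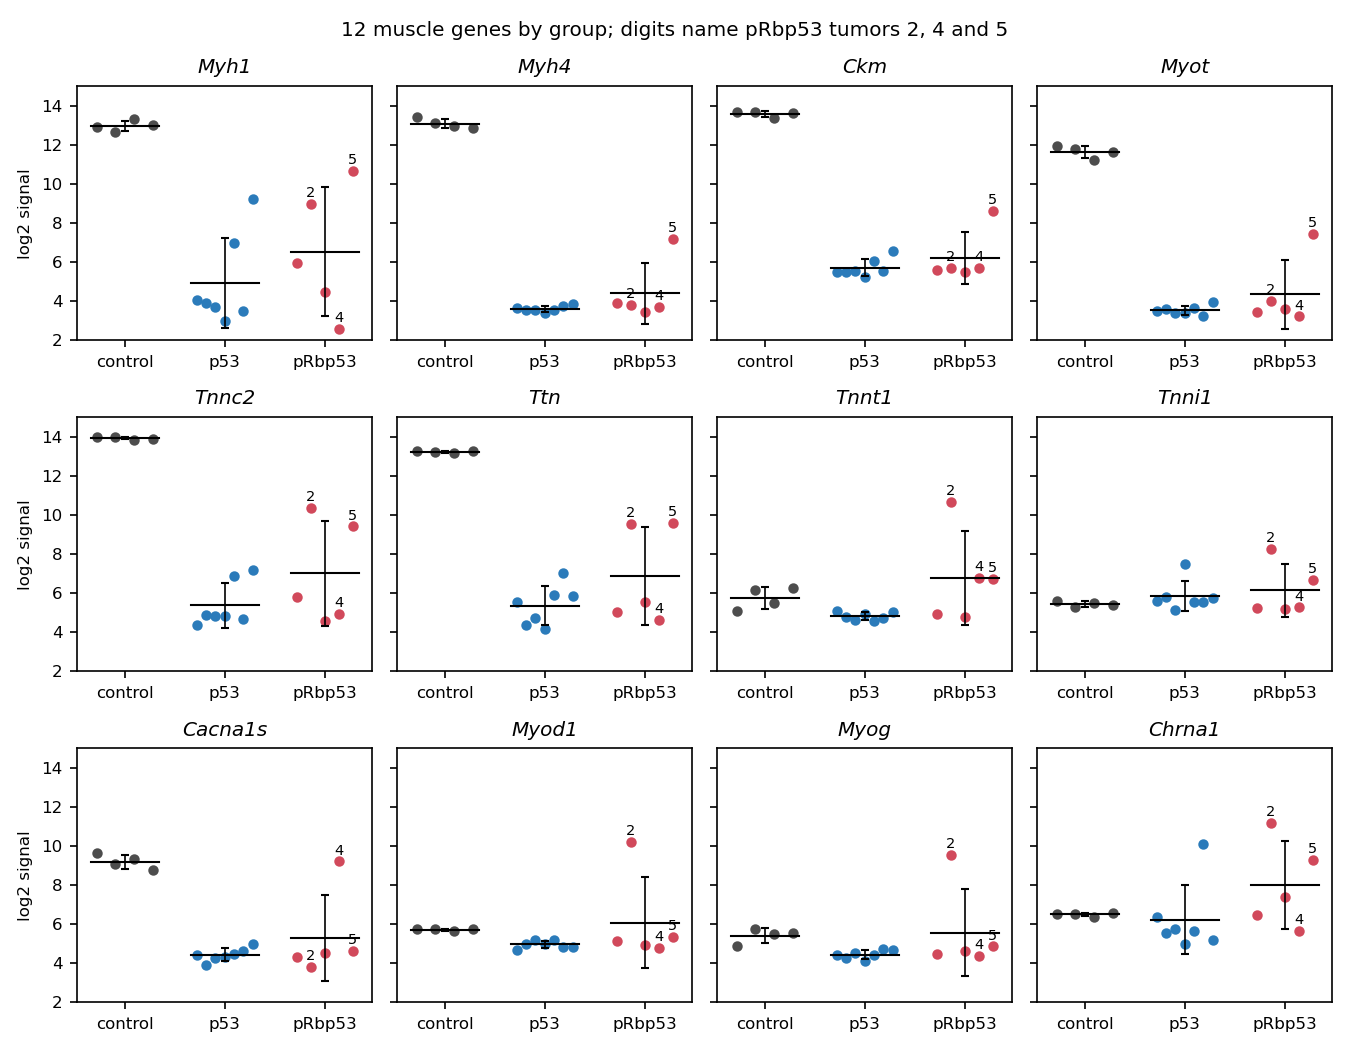
Log2 signal of 9 of the 40 genes and of Myod1, Myog and Chrna1 in control skin (n = 4), p53 tumors (n = 7) and pRbp53 tumors (n = 5), each dot 1 array, with the group mean and SD in black. The digit 2 stands at the top for Tnnt1, Tnni1, Myod1, Myog and Chrna1. For Myh1, Myh4, Ckm and Myot the digit 5 is the highest tumor and lies below the controls.

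Other tumors held single muscle genes, again described after their values were seen. Cacna1s, the voltage sensor of the triad, was 9.21 in pRbp53 tumor 4, inside the control range of 8.76 to 9.61, against 3.82 to 5.0 in the 11 other tumors. The same array had the highest Actn3 (7.80) and Ldb3 (7.29) of the tumors and a Tnni2 of 8.61, while its Myh1 of 2.60 was the lowest of all arrays. In p53 tumor 7, Myh1 was 9.25 and Des 9.04. The smooth muscle actin Acta2 was highest there too, at 13.48, and the mean of 8 smooth muscle genes was 8.95, against 5.78 to 7.94 in the other tumors and 8.27 to 9.0 in control skin. Desmin is made by smooth muscle as well, and the part of smooth muscle in its value was not tested. Asb5, a fiber gene outside the 40, was 9.39 in p53 tumor 6 and 9.58 in pRbp53 tumor 2, within or just above its control range of 8.93 to 9.55, and Chrna1 was 10.10 in p53 tumor 6.

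Further lists of muscle genes were read in the same fit, in which 6.85% of all probesets fell and 6.36% rose. Of 45 measured from a list of 48 other fiber genes, 37 fell, none rose and 8 did not pass, with a median difference of −3.34 (all probesets 0.07). Smpx, a small stretch-linked protein, fell by 7.65 ± 0.35 (SE), the M-band protein Myom2 fell by 7.05 ± 0.63, the mitochondrial creatine kinase Ckmt2 fell by 7.02 ± 0.24, and the muscle phosphoglycerate mutase Pgam2 fell by 6.46 ± 0.20. Tpm3, a tropomyosin of slow fibers and of many other cells, had the highest mean of the list and a difference of 0.53 ± 0.24 (adjusted p = 0.174). Of 6 embryonic or regenerating isoforms, 2 fell, the perinatal heavy chain Myh8 whose difference was −1.78 ± 0.23, and the fetal and heart actin Actc1, whose difference was −1.85 ± 0.30, and 4 did not pass. Of 10 measured myogenic regulators 4 fell, among them Myf6, the regulator kept on in adult fibers, which fell by 4.23 ± 0.17 (adjusted p = 4.10e-11), and Mef2c, which fell by 2.12 ± 0.62. Pax3 and Myf5 fell by 0.32 ± 0.10 and by 0.27 ± 0.06 from low levels. Of 7 genes of the neuromuscular junction 1 passed, Musk, which fell by 0.45 ± 0.12, while Chrna1 differed by 0.47 ± 1.01. None of the 6 heart muscle genes passed in limma (1 was below an unadjusted p of 0.05), and Tnnt2, the brightest of them, differed by −0.43 ± 0.91.

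Relatives of the 40 genes that other cells use were read as well. Of 24 measured paralogs 3 rose (6.36% of all probesets did), 5 fell (6.85% of all did) and 16 did not pass, with a median difference of 0.23. Eno2, the neuronal enolase, rose by 2.35 ± 0.43 (SE, adjusted p = 1.46e-03) where Eno3 fell. Tmod1, a tropomodulin of heart and red cells, Nebl, the nebulin relative of heart, and Jph2, the junctophilin of heart, fell by 3.76 ± 0.24, by 3.73 ± 1.0 and by 2.34 ± 0.36. Actb, the cytoplasmic actin, differed by 0.22 ± 0.10 (adjusted p = 0.170) and was the brightest of the list.

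Genes of the other layers of skin were read in the same arrays and fit, in which 6.85% of all probesets fell. All 10 measured adipocyte genes fell, with a median of −3.60, and their mean signal ran from 8.87 to 10.59 in control skin and from 5.31 to 7.34 in tumors. Adipoq, the hormone of fat cells, and Car3, a carbonic anhydrase of fat and also of muscle, fell by 6.31 ± 0.78 (SE) and by 6.88 ± 0.98. Among the tumors the adipocyte mean was highest in p53 tumor 2 (7.34) and pRbp53 tumor 5 (7.08). Of 12 cornified epidermis genes 11 fell, with a mean of 11.45 to 11.58 in control skin and 4.29 to 7.82 in tumors, and here p53 tumors 7 (7.82), 2 (6.64) and 4 (5.65) stood above the rest, while pRbp53 tumors 2 and 5 were at 4.35 and 4.29. Krt77, an epidermal keratin, and Lce1c, a protein of cornified cells, fell by 8.88 ± 0.50 and by 8.39 ± 0.57. Of 8 smooth muscle genes 2 fell (Synpo2 by 5.58 ± 0.47 and Myh11 by 3.63 ± 0.41), of 6 fibroblast genes none passed in limma (2 were below an unadjusted p of 0.05), and of 7 keratinocyte, 6 endothelial and 3 Schwann cell genes measured, 3, 1 and 1 fell. The part of these tissues, and of RNA quality, in the muscle result was not tested. Without control skin 3 and p53 tumor 7, the arrays with the largest actin differences, 36 of the 40 genes still passed.

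**Figure D5:**
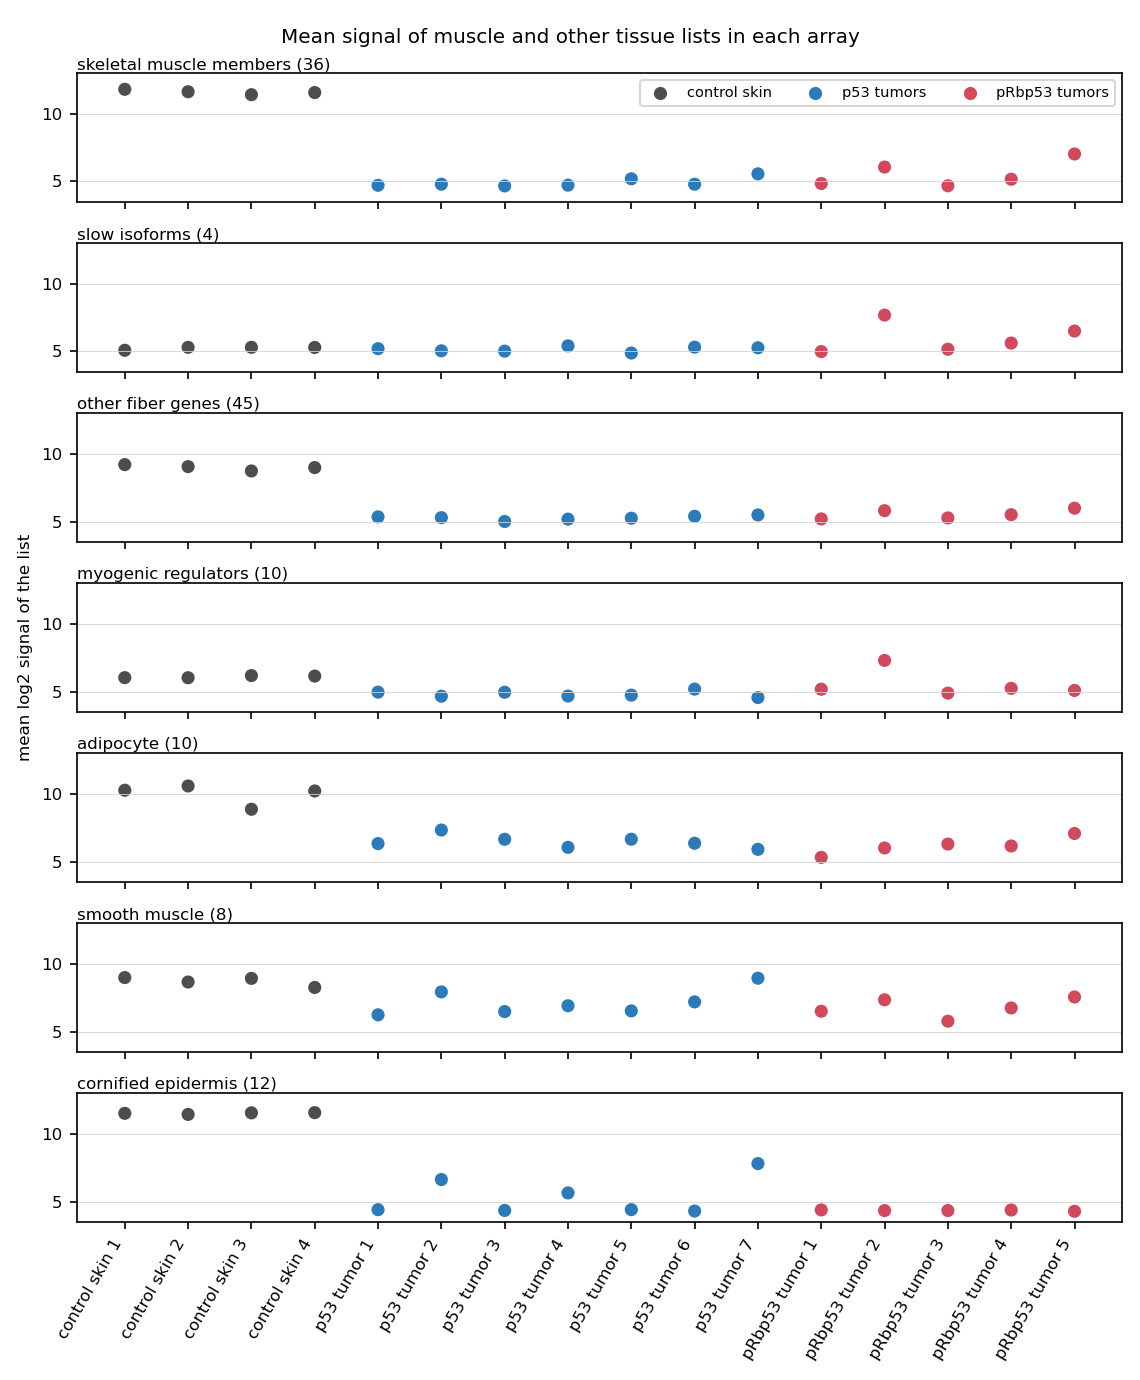
Mean log2 signal of 7 gene lists (panels, number of genes in brackets) in each of the 16 arrays, colored by group. The 36 muscle genes, the adipocyte and the cornified lists lie high in the 4 control arrays, whereas the slow isoforms and the myogenic regulators are highest in pRbp53 tumor 2.

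For 15 of the 40 genes a further probeset could be set beside the one used. The 40 genes have 68 probesets, of which 58 were lower in tumors at an adjusted p of 0.05 and none was higher. The other probesets of Ttn, Apobec2, Sypl2, Des and Trdn that did not pass had control means of 3.0 to 5.73, far below the probeset read for the same gene, and differences between −0.22 and 0.17. With the median of each gene's probesets in place of the brightest, 35 of the 40 genes passed, and Sypl2 was lost (−0.11, adjusted p = 0.608).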

How the data were processed

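Total RNA of 16 samples, isolated with miRNeasy and tested on a Bioanalyzer per the labels, was hybridised to 1 array each. The log2 signals were made by the authors with RMA (version not given in the sources used here), which corrects background, equalises the distributions of the arrays and summarises the probes of a probeset, and they were used as deposited. No raw intensities were used, and precision is limited by how few arrays there are. Of 45101 probesets 64 controls were left out and 45037 were tested, of which 34945 carried 1 gene symbol, 932 several and 9160 none in the platform annotation of 2016.

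Each comparison was a linear model per probeset in limma 3.58.1 (R 4.3.3), with the groups compared as the only samples, moderated variances and Benjamini-Hochberg adjustment over all 45037 probesets. Tests were two-sided, with an adjusted p of 0.05, or 0.1 between genotypes. The script was tested on simulated data. The 41 genes and the other lists were chosen with earlier results of these data known. Values per array are given, for each role group, for the 2 genes with the largest and the 1 with the smallest difference between tumors and control skin. The 4 genes with the smallest p are named in the comparisons among tumors, and of other lists up to 4 called genes with the largest difference and the gene of highest mean. Any further gene named was picked with its values in view. Promoter windows of 250 bases came from RefSeq, build GRCm38.p6. The other gene targeted by the design is not reported here. Tables were handled with pandas 2.3.3 and drawn with matplotlib 3.10.9. Alternatives were a replicate block, other normalization, variance priors, array weights, other tests, a stricter threshold, other choices of probeset and arrays left out.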

Additional observations from a re-analysis of the deposited data

Results flagged for a closer look

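For each of the 40 genes and each group of arrays, the gap between the most extreme array and its nearest neighbour was set against the range of the group (Dixon's criterion, 95% level). Of 120 such groups 12 stood out, where the level chosen gives about 1 in 20 for independent groups. These groups are not independent, since the same arrays were read for every gene, and 5 of the 12 were pRbp53 tumor 5. The count therefore does not show an excess over chance. Among the pRbp53 tumors, tumor 5 stood apart upwards for Myh4 (7.20), Ckm (8.60), Tcap (7.47), Trdn (6.03) and Myot (7.45), and tumor 4 for Cacna1s (9.21). Among the p53 tumors, tumor 3 was far above the others for Eno3 (9.04), tumor 7 for Des (9.04) and tumor 4 for Tnni1 (7.50). In control skin, sample 1 was high for Casq1 (12.30) and Myoz1 (11.66), and sample 3 was low for Rpl3l (8.78). What lies behind these readings was not tested.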

How the results depend on the processing

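The 36 calls in tumors against control skin were made again whichever array was left out (36 to 36), and the other settings called 29 to 37 genes, with 29 of 30 left after dim probesets were removed. Brightness was the mean over all arrays, control skin included, so genes high only in control skin could pass. Counts and medians on brighter probesets are therefore no check of the fall. The p53 comparison called 36 (36 to 36 with an array left out, 29 to 37 otherwise) and the pRbp53 comparison 37 (36 to 37, and 29 to 37). The median difference of −6.36 was −6.49 to −6.29 with an array left out, −7.08 on brighter probesets and −5.54 with the median of each gene's probesets. In p53 tumors the median of −6.49 was −6.60 to −6.43, −7.36 and −5.67 under the same settings, and in pRbp53 tumors −6.11 was −6.50 to −5.86 with an array left out. Between genotypes 0 genes were called under every setting, and the median of 0.51 was 0.15 to 0.73 with an array left out. In the comparison of mixed tumors 0 were called under every setting, and the median of −0.10 was −0.22 to 0.08 with an array left out and up to 0.17 otherwise.

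The single call by grade, Ldb3, became 0 calls under the replicate block, the methods' t-test, Welch's test, an adjusted p of 0.01, the median of probesets, the removal of pRbp53 tumors 2 and 5 and genotype as a covariate (0 to 1 with an array left out), and the cause was not tested. Its adjusted p over all alternatives reached 0.570, under the block. The median by grade, 0.35, was 0.07 to 0.43 with an array left out and 1.53 under the replicate block, and it turned to −0.0948 with genotype as a covariate and was also below 0 without pRbp53 tumors 2 and 5. Same-numbered arrays deviated together in 3 of 13 pairs (r above 0.1, range −0.23 to 0.25). Differently numbered arrays were not read for reference, so whether the numbers pair arrays is not settled. Apart from grade and Tnnc1 in pRbp53 tumors against control skin (1.03, adjusted p = 0.0746), the block lost no call reported.

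Differences near 0 changed sign: under the replicate block Myh7 was −0.0745 and Tnnt1 0.0815, without pRbp53 tumors 2 and 5 Myh7 was −0.0894, and with control skin 2 and 4 averaged Myh7 was −0.0389 and Tnnt1 0.0422. With 1 array left out, Tnnt1 was 0.0249 (control skin 2) and 0.0596 (control skin 4), and Myh7 was −0.10 (control skin 4), −0.0097 (p53 tumor 6), −0.0068 (pRbp53 tumor 2), −0.012 (pRbp53 tumor 4) and −0.0628 (pRbp53 tumor 5). Over all alternatives 1461 single-gene values kept their direction and side of the threshold, 30 lost the call, 2 gained one and 12 changed sign. Tumor readings near the array's background, and those of the slow isoforms in control skin, limit what a difference or a remaining percentage can show.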

Other observations

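The mean signal of each role group was also read in the 2 arrays with the most muscle signal and set beside the range of the 10 other tumors. Thick filament genes averaged 8.20 in pRbp53 tumor 5 and 6.25 in pRbp53 tumor 2, against 4.08 to 5.91 in the others. Thin filament genes averaged 8.57 and 7.77 (others 4.56 to 6.41), titin and Z-disc genes 6.93 and 5.88 (4.74 to 5.51) and energy enzymes 6.09 and 5.56 (4.71 to 5.05). Calcium genes averaged 5.83 in pRbp53 tumor 5, above the range of 4.68 to 5.35 in the others, and 5.30 in pRbp53 tumor 2, within it. Each value comes from 1 array, so there is no replicate check.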
